A study of Strongylocentrotus purpuratus with 17 samples.

Results

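The larval skeleton of the purple sea urchin, Strongylocentrotus purpuratus, is made by a small group of mesoderm cells, and 7 genes of that process were followed through transcriptional regulatory elements called at 4 embryonic ages. The genes were the spicule matrix and biomineralization genes SM50, SM37, PM27, SM29, SM30A, msp130 and P16, among 30064 genes that could be given a place on the genome. An element was taken as theirs when its midpoint lay inside 1 of these genes or within 10 kb of it, and elements shared between neighbours were counted once. This gave 15 of 56158 elements for embryos of 8 h, 9 of 30570 for 12 h, 33 of 37796 for 20 h and 2 of 4425 for 72 h.

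The skeletogenic cells leave the blastula wall, fuse with each other and lay down calcite spicules in a space enclosed by their joined processes. Spicule matrix proteins are secreted proteins held within the mineral, and SM50, SM37, PM27, SM29 and SM30A are members of this class. Of the others, msp130 is a glycoprotein on the surface of the mineral-forming cells. P16 is a small acidic transmembrane protein needed for the growth of the skeletal rods.

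Elements were called by dREG, a classifier that finds promoters and enhancers from PRO-seq, a sequencing of the RNA made by polymerases already engaged in isolated nuclei. The embryos were wild-type whole embryos raised at 15 °C and sampled at 8 h (2 libraries, 1 biological replicate by title), 12 h (4 libraries, 3 replicates), 20 h (5 libraries, 4 replicates) and 72 h (2 libraries, 2 replicates). Ages came from the titles, because the tissue label names the 8 h hatching blastula for every library. Each age had 1 list pooled over its libraries, holding positions only, so there is no error between replicates, the depth of reading is unknown, and no test between ages was made. The lists differ in length by age. The middle 2 ages were taken over from earlier samples, per the labels, and an effect of that origin cannot be told apart from age. An element in whole embryos does not say which cells used it, and fewer cells of a type or less RNA per cell cannot be told apart.

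The 7 genes lay on 3 scaffolds of the Spur_5.0 assembly, 5 of them on NW_022145602.1. SM50 (7408098 to 7417268), SM37 (7428916 to 7430654) and PM27 (7453274 to 7454605) formed a cluster of 46.5 kb, with gaps of 11.6 kb and 22.6 kb. SM29 (7916731 to 7927690) began 462 kb beyond PM27, and SM30A (5017907 to 5024233) lay apart on the same scaffold. The gene msp130 was at 25050066 to 25066371 of NW_022145601.1 and P16 at 10667000 to 10669900 of NW_022145615.1. The annotation table gives neither strand nor exons, so an end of a gene is called its lower or upper end by coordinate, and start sites are not named. It also gives no scaffold, so each gene's scaffold was inferred from the 8 h elements. Around each of the 7 genes, 97 to 100 neighbouring genes without the 7 themselves were best placed on the stated scaffold by the 8 h and 12 h lists. The scaffolds had been set from the 8 h list, so its agreement was no separate check. The 20 h list placed the neighbours of SM30A elsewhere, with 15.5% of gene ends near an element there, and the 72 h list placed those of msp130 elsewhere, so these positions are less firm.

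The 20 h list stood out at 5 of the 7 genes. SM50 had 2, 3, 6 and 1 elements at 8 h, 12 h, 20 h and 72 h. SM37 had 2, 0, 5 and 0, and PM27 had 2, 1, 6 and 1. At all 3 genes of the cluster 20 h was the age with the most elements.

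SM29 had 2, 2, 8 and 0 elements, and P16 had 2, 0, 7 and 0. SM30A had 2, 1, 1 and 0, and msp130 had 3, 2, 2 and 0. Within 10 kb, SM30A and msp130 thus had their highest number at 8 h, not at 20 h. Within 5 kb, 8 h and 20 h were equal, with 1 element each at SM30A and 2 each at msp130. The same held with elements inside neighbouring genes left out. Over all 24774 protein-coding genes placed, the mean was 2.55, 1.53, 1.85 and 0.27.

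**Figure D1:**
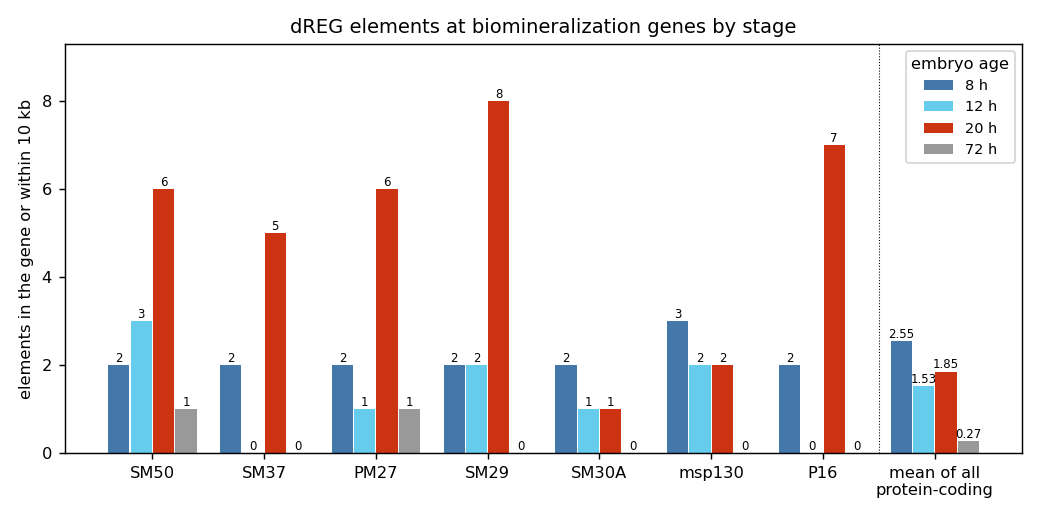
Bars give the number of elements in each gene or within 10 kb of it, at 8 h, 12 h, 20 h and 72 h, with the mean of all protein-coding genes at the right. SM50, SM37, PM27, SM29 and P16 have 5 to 8 elements at 20 h, while SM30A and msp130 have 1 and 2.

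Between 12 h and 20 h, 5 of the 7 genes had more elements at 20 h and 0 had fewer, against 33.5% of all protein-coding genes with more and 22.5% with fewer. The size of the difference set these genes further out. SM37, PM27, SM29 and P16 had at least 4 more elements at 20 h than at 12 h, against 3.64% of protein-coding genes. P16 had 7 more at 20 h, as large a difference as in 0.589% of protein-coding genes, and SM29 had 6 more, as in 1.08%. These differences depend on the reach: within 5 kb P16 had 4 more and SM29 and SM37 3 more each, and with elements inside neighbouring genes left out P16 had 4 more. SM30A and msp130 had the same number at both ages. For msp130 the difference was 1 more at 20 h within 5 kb and 1 fewer in the gene body alone.

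Compared with 8 h, the same 5 genes had more elements at 20 h, against 17.2% of protein-coding genes. SM30A and msp130 had 1 fewer each, a difference that was absent within 5 kb. For 5 of 7 genes 20 h held more elements than any other age, against 14.7% of protein-coding genes. SM50, PM27, SM29 and P16 had 6 or more elements at 20 h, against 5.49% of protein-coding genes. The neighbourhoods of the 7 genes were 21.3 to 36.3 kb long. Per length, P16 had 3.06 elements per 10 kb at 20 h, a density reached by 0.186% of protein-coding genes. PM27 had 2.81 per 10 kb (0.343% of genes as dense), SM29 2.58 (0.476%), SM37 2.30 (1.06%) and SM50 2.06 (1.70%). SM30A, at 0.380 per 10 kb, was matched or passed by 52.7% of genes, and msp130, at 0.551, by 37.9%.

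At 8 h the 7 genes were unremarkable in number, with 2 or 3 elements each. At least 2 were found at 66% of protein-coding genes. Within 10 kb, 5 of the 7 had fewer elements at 12 h than at 8 h, against 59.1% of protein-coding genes. SM50 alone of the 7 had more, against 9.20%, but this depends on the reach. Within 5 kb SM50 had 2 at both ages. With elements inside neighbouring genes left out it had 2 at 8 h and 1 at 12 h. SM29 had 1 at 8 h and 2 at 12 h under both of these settings. SM37 and P16 had none at 12 h. At 72 h all 7 had fewer than at 20 h, against 66.7% of protein-coding genes, and the 72 h list is itself the shortest. SM50 and PM27 kept 1 element each, so 2 of 7 genes had any at 72 h, against 21.9%.

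As a share of each list, the 7 genes held 0.0267% of elements at 8 h (95% Wilson interval 0.0162 to 0.0441), 0.0294% at 12 h (0.0155 to 0.0559), 0.0873% at 20 h (0.0622 to 0.123) and 0.0452% at 72 h (0.0124 to 0.165). These intervals cover counting error only. The 20 h interval lies above those of 8 h and 12 h, and overlaps that of 72 h, which rests on 2 elements. Elements of 1 neighbourhood are not independent, and the genes were chosen with earlier results of these data known. The intervals are therefore no test between ages. Over the 180 kb of the 7 neighbourhoods the density at 20 h was 18.3 elements per 100 kb, against 4.32 over the placed scaffolds. The ratio of these densities was 1.32, 1.45, 4.24 and 2.14 at the 4 ages in turn.

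Most of the 20 h elements at these genes had not been called at an earlier age. Of the 33, 24 overlapped no element at 8 h or 12 h, a share of 72.7% (95% Wilson interval 55.8 to 84.9), against 33.8% of the whole 20 h list. Counted against 12 h alone, 30 of 33 were absent, 90.9% (76.4 to 96.9), against 50.7% of the list. The 24 lay at SM29 (7), P16 (6), PM27 (5), SM50 (4) and SM37 (4), with 2 counted at both SM50 and SM37. SM30A and msp130 had 0 of them. Over protein-coding genes the mean was 0.554 such elements, and 4 or more were found at 2.46%.

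**Figure D2:**
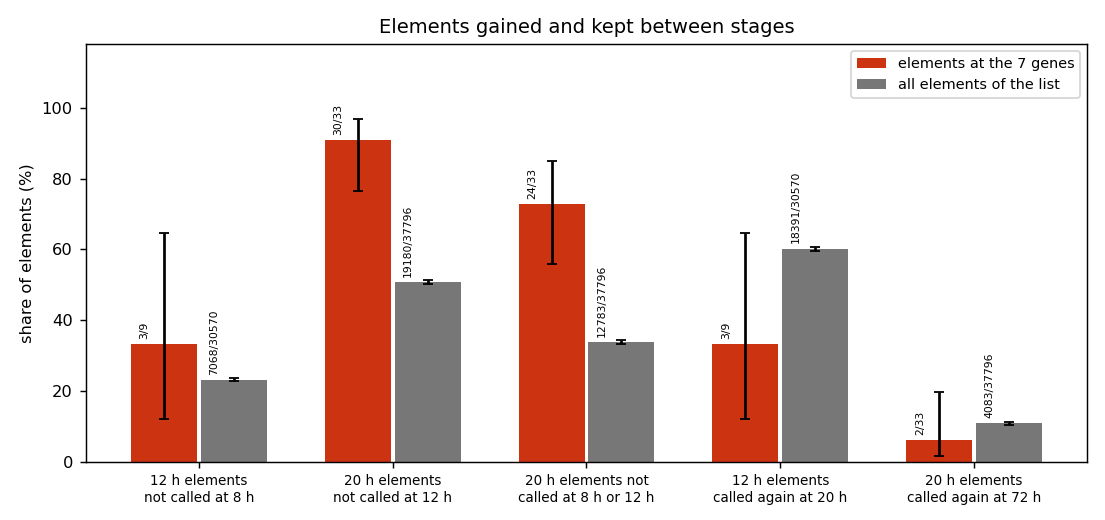
Bars give shares of elements, at the 7 genes in red and over the whole list in grey, with Wilson 95% intervals for counting error and the counts printed above. At the 7 genes 24 of 33 elements at 20 h were called at neither earlier age, against 12783 of 37796 in the list.

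Leaving out any 1 of the genes put this share between 68.0% (without SM29) and 77.4% (without msp130). Without the whole cluster of SM50, SM37 and PM27, 13 of 18 elements at 20 h were called at neither earlier age, 72.2%. Elements of 1 neighbourhood are not replicates of each other, so the shares describe these loci and carry no test.

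The 12 h elements, in turn, were seldom called again. Of the 9, 3 overlapped a 20 h element, 33.3% (12.1 to 64.6), against 60.2% of the 12 h list. The 3 were at SM50, with 2, and at SM30A. By contrast 9 of the 15 elements at 8 h were called again at 20 h, 60.0% (35.7 to 80.2), against 40.8% of the 8 h list, and 6 of the 15 were called again at 12 h, 40.0% (19.8 to 64.3), against 41.9%. With 9 and 15 elements these intervals are wide, and those for 20 h include 60.2% and 40.8%. Merged over ages, the elements made 42 regions, of which 5 were called at 8 h and 20 h and at no other age, 11.9% (5.19 to 25.0), against 7.89% of all regions of the series. None was called at 12 h and 20 h alone, which allows up to 8.38% by the Wilson interval, against 2.21% of all regions. Both intervals include the value for all regions.

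Of the 12 regions called at more than 1 age, 5 lay at an end of 1 of the 7 genes, and of the 30 called at 1 age, 5 did. The same counts were not made over all regions of the series, so they have no background here and were not tested. SM50 carried the only region called at all 4 ages, across its upper end. It ran from 7416691 to 7417800 at 8 h, 7416931 to 7417790 at 12 h, 7416781 to 7417840 at 20 h and 7416951 to 7417710 at 72 h. Its width was 1110, 860, 1060 and 760 bp, and every call covered position 7417268, the annotated end. In the merged lists of the whole series 4.86% of regions were called at all 4 ages.

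PM27 had its upper end covered at 8 h (7454411 to 7454970), 20 h (7454361 to 7455040) and 72 h (7454451 to 7454840), with no call there at 12 h. These 2 gene ends held the only 72 h elements at the 7 genes, so both lay in the matrix gene cluster. SM37 had its lower end covered at 20 h (7428371 to 7429130) and already at 8 h (7428461 to 7429130). Its upper end was covered at 8 h alone (7430041 to 7430690).

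P16 also had its lower end covered at 20 h (10666201 to 10667260), over 1060 bp, and already at 8 h (10666621 to 10667100), over 480 bp. Its upper end was covered at 20 h alone (10669581 to 10670260). SM30A had its upper end covered at 8 h (5024021 to 5024780), 12 h (5024161 to 5024950) and 20 h (5024131 to 5024640). Among the 7 genes, then, an element lay within 500 bp of a gene end at 5, 3, 6 and 2 genes over the 4 ages. The background, from 8 h to 72 h, was 49.5%, 39.6%, 43.2% and 12.4% of protein-coding genes. SM37, PM27, SM29 and P16 had such an element at 20 h where 12 h had none, against 8.67% of protein-coding genes.

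SM29 and msp130 differed from the rest in this. SM29 had no element at either end at 8 h or 12 h. An element lay inside the gene at both ages (7921561 to 7922470 at 8 h), and its lower end, like the upper end of P16, was first covered at 20 h (7916481 to 7916870). It was the only 1 of the 7 with an element at either end at 20 h that had none at 8 h, against 5.02% of protein-coding genes. In msp130 an element lay inside the gene next to its upper end at 12 h alone (25065741 to 25066240). Its 2 elements at 20 h lay 2.84 kb and 4.18 kb beyond that end, where the 8 h list had elements too.

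**Figure D3:**
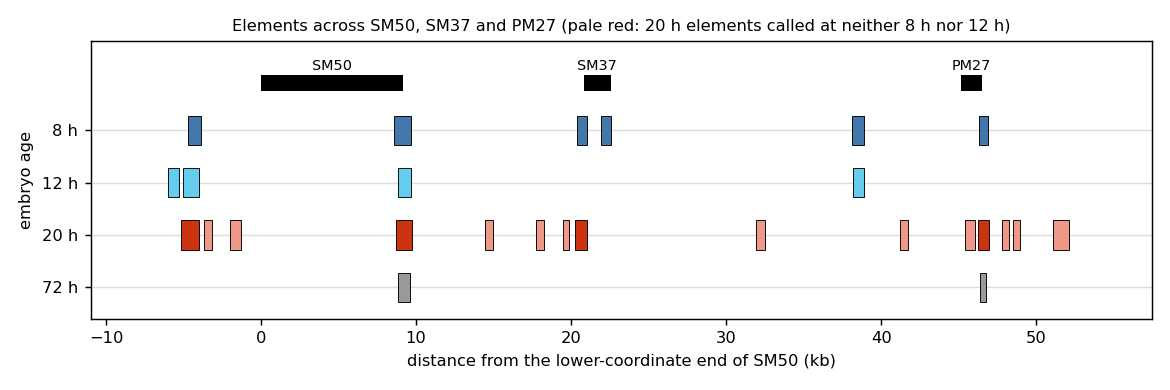
Boxes are elements drawn to scale along the SM50, SM37 and PM27 cluster, 1 row per age, with black bars for the genes and pale red for 20 h elements called at neither 8 h nor 12 h. The upper ends of SM50 and PM27 hold the 72 h elements, and most of the 15 elements at 20 h lie between or beside the genes.

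Elements first called at 20 h lay mostly off the gene ends. Of the 24, 3 were within 500 bp of an end of 1 of the 7 genes, 2 were inside SM29 and 19 were outside the genes. Among the 3, the element at 7453501 to 7454160 lay inside PM27 and covered neither end. Of the 9 that had been called before, 5 were at such an end. Windows of 500 bp are short beside the reach of 10 kb, and these places were not counted over the whole list. Whether the split is particular to these genes was therefore not tested. The 24 had a median width of 555 bp, against 760 bp for the other 9. The whole 20 h list showed the same order, with 560 bp for elements called at neither earlier age, against 690 bp for the rest.

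Around SM50, SM37 and PM27 there were 6, 4, 15 and 2 distinct elements at 8 h, 12 h, 20 h and 72 h, and the 15 spanned 57.3 kb. At SM50, 2 lay between its lower end and the neighbouring gene LOC100890869, 7404431 to 7404910 and 7406071 to 7406810. Another 2, at 7422561 to 7423070 and 7425811 to 7426370, lay in the gap between SM50 and SM37 and belong to both neighbourhoods. SM37 had a further element in that gap, 7427571 to 7427990, at 1.14 kb from the gene. PM27 was flanked above its upper end by 7455891 to 7456350, 7456581 to 7457070 and 7459201 to 7460230, at 1.52, 2.22 and 5.11 kb from the gene. None of these elements around the cluster had been called at 8 h or 12 h. Another 20 h element counted at SM50, 7402961 to 7404070, had its midpoint in LOC100890869. That of SM37 at 7440031 to 7440630 lay within the annotated gene LOC588710. These may be counted with either gene, and with elements inside neighbouring genes left out SM50 had 5 and SM37 had 4 at 20 h.

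At SM29, 4 of the 8 elements at 20 h lay below its lower end, 2 inside and 2 above. The 2 inside, 7917521 to 7918220 and 7918251 to 7919000, were 30 bp apart. The 2 above lay within the annotated gene LOC576354, so they may be counted with either gene. At P16, 5 of 7 lay below the lower end, and 3 of these, between 10656881 and 10659860, lay within a long non-coding RNA gene, LOC100891392. Others lay between genes, at 10663991 to 10664730 and, past the upper end, at 10670711 to 10671600.

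**Figure D4:**
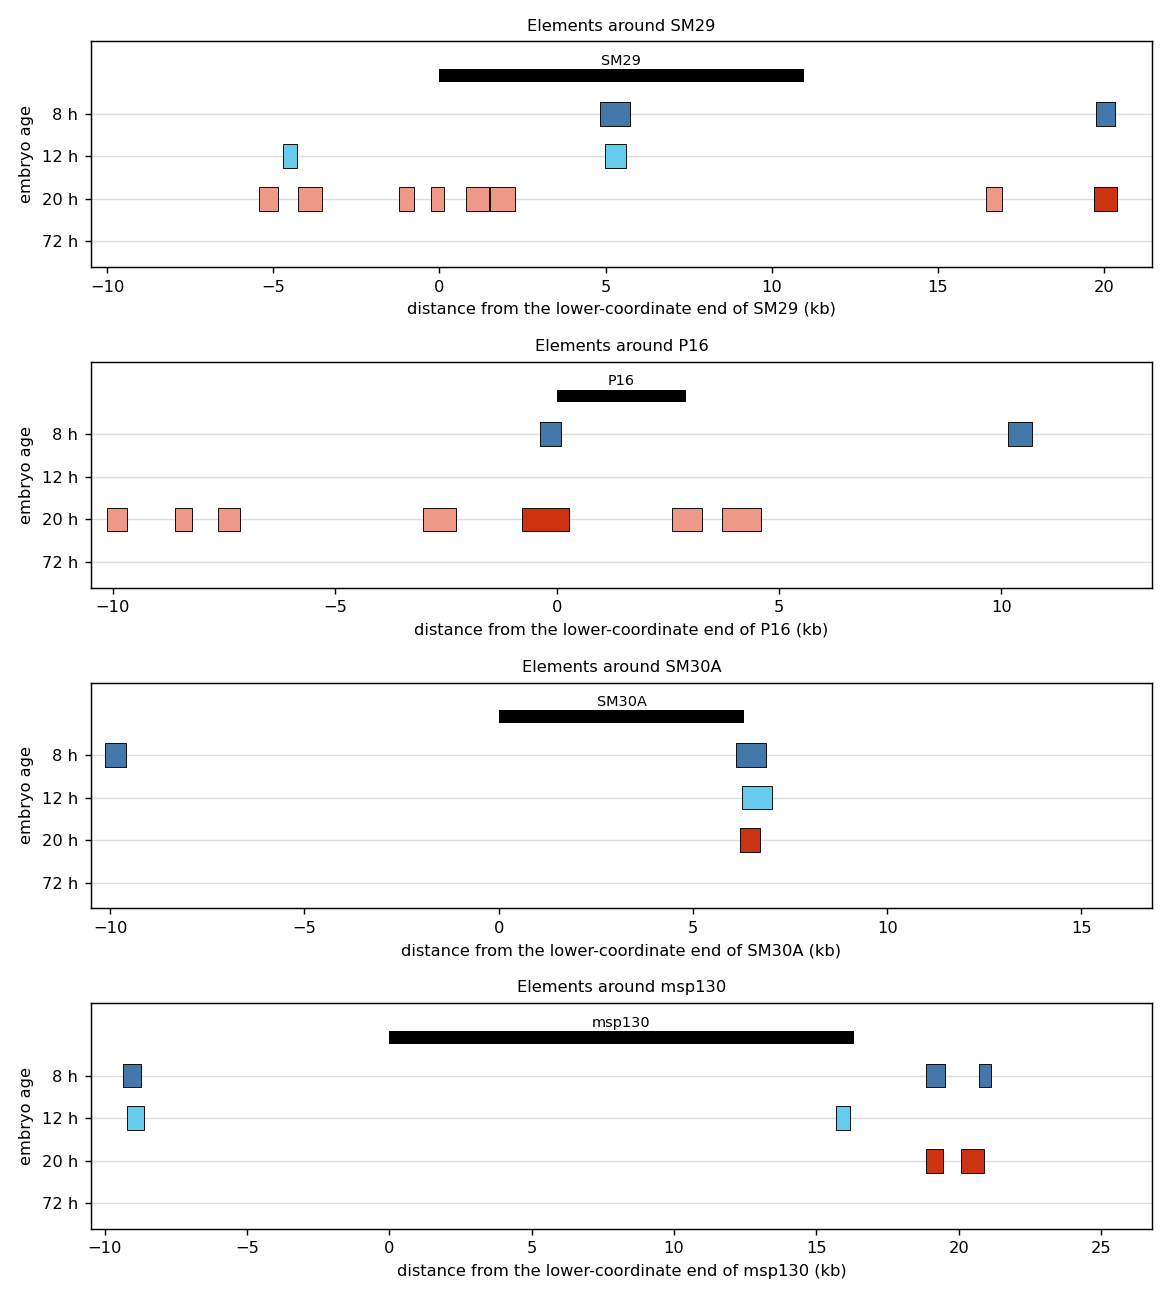
Boxes are elements around SM29, P16, SM30A and msp130, 1 row per age, by distance in kb from the lower-coordinate end of each gene, with pale red as in the cluster map. SM29 and P16 have 8 and 7 elements at 20 h and none at 72 h, while SM30A and msp130 have 1 and 2 at 20 h.

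At 20 h the 7 genes stood furthest from other genes just outside their ends. Within 5 kb outside the 7 genes there were 21 elements at 20 h, or 3.0 per 10 kb, against 0.588 per 10 kb around all protein-coding genes. From 5 to 10 kb there were 9, or 1.46 per 10 kb against 0.485. From 10 to 20 kb there were 11, or 1.07 against 0.479, and from 20 to 50 kb 17, or 0.567 against 0.467. Inside the gene bodies there were 3, or 0.616 per 10 kb against 0.489. At 8 h the values within 5 kb were 1.00 against 0.776 per 10 kb, and at 12 h 0.571 against 0.490.

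**Figure D5:**
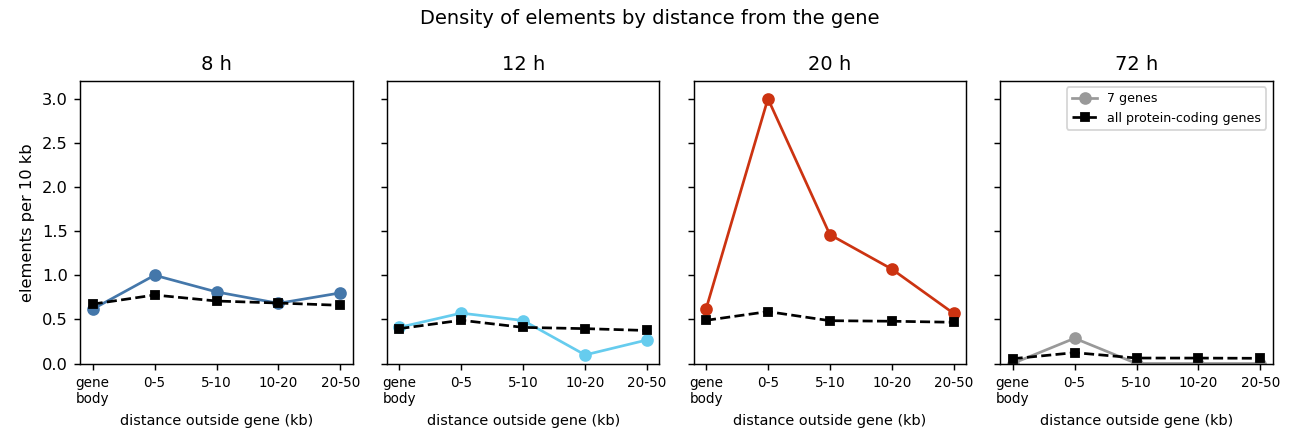
Points give elements per 10 kb inside genes and in 4 classes of distance outside them, for the 7 genes (circles) and all protein-coding genes (squares), 1 panel per age. At 20 h the 7 genes reach 3.0 per 10 kb within 5 kb, and 0.567 at 20 to 50 kb.

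Skeletogenic regulator genes and collagen genes were counted in the same way, and which cells used their elements is likewise not known. The regulator genes Alx1, ets1, erg, dri and snail held 26, 11, 21 and 3 distinct elements at 8 h, 12 h, 20 h and 72 h, and the collagen genes COLP1alpha to COLP4alpha held 18, 8, 18 and 2. More elements at 20 h than at 8 h were found at 5 of 7 biomineralization genes, 0 of 5 regulator genes and 1 of 4 collagen genes, COLP4alpha. More at 20 h than at 12 h were found at 5 of 7, 4 of 5 and 4 of 4. At least 6 elements at 20 h were found at 4 of 7, 3 of 5 (Alx1, ets1 and dri) and 2 of 4 (COLP3alpha and COLP4alpha). The share of protein-coding genes was 5.49%. Alx1, ets1, dri, COLP3alpha and COLP4alpha had neighbourhoods of 43.2 to 94.2 kb, against 21.3 to 36.3 kb for the 7 genes. Those of snail and erg were 23.8 and 39.7 kb, with 0.419 and 0.504 elements per 10 kb at 20 h. COLP1alpha and COLP2alpha had 0.481 and 0.224 per 10 kb at that age. Per 10 kb, Alx1 had 0.797 elements at 20 h, ets1 0.835, COLP3alpha 1.14, COLP4alpha 1.27 and dri 1.39. Densities as high were found at 24.3%, 22.0%, 11.9%, 8.75% and 6.75% of protein-coding genes in turn. SM50, SM37, PM27, SM29 and P16 had 2.06 to 3.06. At least 4 more at 20 h than at 12 h were found at 4 of 7, 1 of 5 (Alx1) and 1 of 4, COLP4alpha, which had 12 elements at 20 h, 7 more than at 12 h. Differences between these small sets were not tested. Of 47 other names of biomineralization genes that were searched, 1 was matched in the annotation, MMP14, a matrix metalloproteinase gene, with 2, 2, 3 and 0 elements.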

How the data were processed

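Nascent transcription was measured by PRO-seq in 17 libraries of 6 groups, and 13 libraries stand behind the 4 lists used. The other 4 (quick PRO-seq of 72 h embryos and of red spherule cells) were not analysed here. The authors deposited 1 list of dREG peaks per age, as start and end positions on the Sp 5.0 genome per the labels. For the aligner and the settings of dREG and of pooling, the method is not given in the sources used here. The lists hold no score, and positions are in steps of 10 bp.

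Genes came from the RefSeq table of Spur_5.0. Runs of at least 900 genes with increasing starts were placed on the scaffold where the most ends of genes had an 8 h element within 500 bp, which gave 21 scaffolds and 30064 of 33503 genes. In pieces of 100 genes, 255 of 288 were best placed on their run's scaffold by the same 8 h list. Lists shared an element when at least 1 bp overlapped. The neighbourhood was the gene and 10 kb either side. Work was done in Python 3.11.15 with numpy 2.4.6, and counting and placement were tested on simulated data. The planned start site windows and sequence motifs were left out, as neither strand nor sequence was used here. The genes named are the 7 members, the comparison genes and matched names of a fixed list. Members and lists were chosen with earlier results of these data known.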

Additional observations from a re-analysis of the deposited data

How the results depend on the processing

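Counting elements inside the gene bodies only left 3, 2, 3 and 0 distinct elements at 8 h, 12 h, 20 h and 72 h, and 3 of 3 at 20 h (100%) were called neither at 12 h nor at 8 h. So the higher number at 20 h than at 8 h rests on elements outside the genes. With 50 kb either side there were 46, 18, 61 and 2. Elements of at least 400 bp left 1 at 72 h. With 5 kb either side, any overlap in place of midpoints, or elements 100 bp or less apart joined, all 4 counts were within 1.5 times of those reported. Leaving out elements inside a neighbouring gene, an alternative chosen after seeing the data, gave 12, 6, 26 and 2. The share of 20 h elements called at neither earlier age was 63.9% to 78.8% under the other reaches, overlaps of at least 50% and that alternative. Gene-end counts did not change with 250 or 1000 bp. For SM50, SM37, PM27, SM29 and P16 no alternative gave fewer elements at 20 h than at 12 h, though the gene body alone gave no difference for SM50, SM37 and P16. The difference at P16, 7 as reported, was 4 with 5 kb and with neighbouring genes left out, and 12 with 50 kb. At msp130, with no difference as reported, it was 1 with 5 kb and with neighbouring genes left out, and -1 with the gene body alone and with 50 kb. At SM30A it was 4 with 50 kb. No paired analysis was possible because each age has 1 pooled list, and for the same reason no replicate could be left out. Unknown depth limits every absence from a list.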
